A study of Mus musculus with 3 samples.

Results

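The untreated pools of a mouse embryo study were described here on their own, by the brightness of their signal. They were 3 of the 6 pools in the series, chosen as the pools labelled with Cy3, the green dye, on 3 two-colour microarrays. Each pool held four-cell embryos grown from control oocytes, which were handled like the treated oocytes but not put under pressure. Pools 1, 2 and 3 held 36, 33 and 24 embryos, numbered as in the sample titles. The remaining pools, from oocytes given high hydrostatic pressure (HP) of 20 MPa for 60 min at 37 °C, carried Cy5 on the same arrays and were not used. Both kinds of oocyte were fertilised by ICSI, the injection of sperm into an egg, as the labels state. The title of the series names in vitro fertilisation. From each pool 240 pg of total RNA was amplified in successive rounds before labelling. No strain or age of the mice was given in the sources used here.

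The mouse four-cell embryo lies between the stores of the egg and the programme of the blastocyst. An oocyte carries messenger RNA and protein made during its growth, and after fertilisation much of that RNA is degraded while the genome of the embryo is switched on, first weakly in the zygote and then broadly at the two-cell stage. At the four-cell stage the cells still look alike, and the trophectoderm, epiblast and primitive endoderm are set apart later, when the embryo compacts and forms a cavity.

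The signal of a spot is given below as net signal, the mean scanner signal less the median of the local background. A gene counted as detected in a pool when the scanner software called its probe well above background, and genes fell into those detected in 3 of 3, in 1 or 2 of 3 and in 0 of 3 pools. A gene with several probes was represented by the probe with the highest mean log2 signal. Brightness depends on the probe as well as on the RNA, so the order of signals between genes is an order of spots and not of transcript amounts. In a pool of embryos, fewer cells with a transcript and less of it in each cell cannot be told apart. Nothing in the labels says whether the pools came from separate females, so the spread between them may be partly technical.

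Of 19504 genes, 4585 were detected in 3 of 3 pools, which is 23.5% of the genes measured. A further 3742 genes (19.2%) were detected in 1 or 2 pools, and 11177 (57.3%) in none. The share detected was 31.4% in pool 1, 35.6% in pool 2 and 29.1% in pool 3, so the pool with the fewest embryos also had the fewest detected genes. The part of embryo number in this order was not tested. Of the genes detected in a single pool, 650 were seen in pool 1, 1247 in pool 2 and 595 in pool 3. Pool 2 was also the brightest before scaling, with a median net signal of 286 over the genes detected in 3 of 3 pools beside 195 in pool 1 and 200.1 in pool 3.

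Genes detected in 3 of 3 pools had a median net signal of 232 (quartiles 100.5 and 693), those detected in some pools 40.7 (35.7 and 51.8) and those detected in none 26.0 (23.2 and 29.3). The last range is that of spots that match no mouse transcript: the 153 negative control spots had a median net signal of 21.9, 23.6 and 25.3 in pools 1, 2 and 3 and a 95th percentile of 25.6, 27.3 and 32.8. A net signal of about 20 to 30 is therefore the floor of these arrays. Among the genes detected in 3 of 3 pools, 1135 had a mean net signal under 100, 2578 from 100 to 1000, 802 from 1000 to 10000 and 70 of 10000 or more. No spot was saturated. The size of the detected class depended on the call. A weaker call, that a spot was positive and significant, put 8931 genes in 3 of 3 pools.

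**Figure D1:**
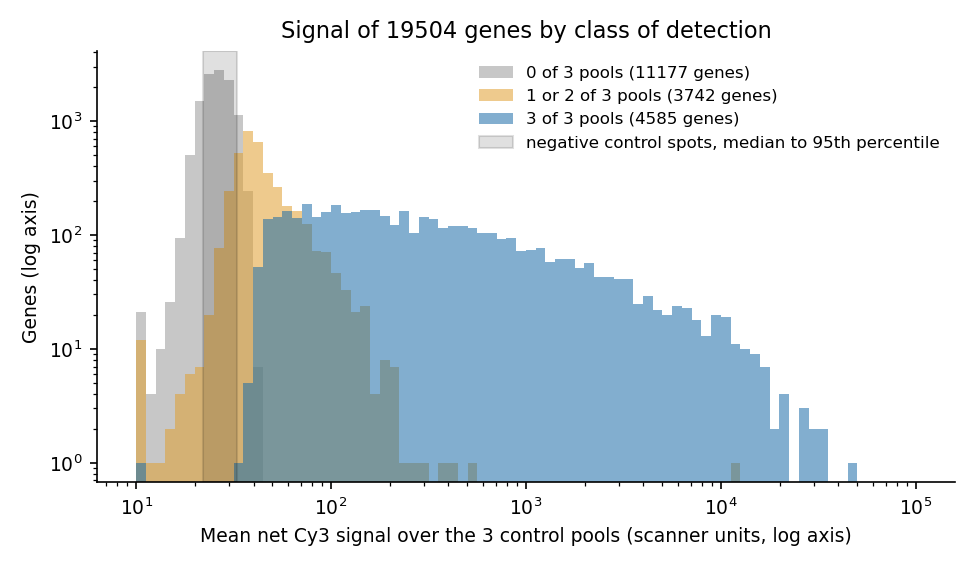
Histogram of the mean net Cy3 signal of 19504 genes over the 3 control pools (scanner units, both axes logarithmic), by class of detection; the shaded band runs from the lowest median to the highest 95th percentile of the negative control spots, and values under 10 are drawn at 10. The 11177 genes detected in no pool lie in and around the band, and the 4585 genes detected in 3 of 3 pools reach from near it to 45032.

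The label of a four-cell embryo was set against 15 marker genes of the oocyte and early embryo, 13 of which had a probe with a gene name. Of these, 6 were detected in 3 of 3 pools, 3 in some pools and 4 in none, beside 23.5% of all genes in 3 of 3 pools. Detected in all pools were Khdc3 and Tle6 of the subcortical maternal complex, the oocyte growth factor Gdf9, the egg coat protein gene Zp3, the transcription factor gene Tead4 and the cadherin gene Cdh1. Bmp15, the partner of Gdf9, Pou5f1 (Oct4) and Zscan4c were each detected in 1 or 2 pools. Nlrp5, Ooep and Padi6 of the same complex and the egg coat gene Zp2 were not well above background in any pool, with net signals of 20.2 to 28.0. Part of the markers was thus detected. Khdc3, Tle6, Gdf9 and Zp3 are genes of the oocyte, so their calls cannot tell a four-cell embryo from an egg. Several classical markers were not measured above the floor by these probes.

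The 25 genes with the highest mean net signal ran from 14980 to 45032, and 9 of them encoded cytosolic ribosomal proteins, the building blocks of the ribosome. The brightest of all, Efcab15, an EF-hand domain gene, measured 37751, 49197 and 48148 in pools 1, 2 and 3. Mt2, which encodes a metal-binding metallothionein, followed at 27262, 43720 and 28386. Pool 2 was the highest for both. Rplp2, an acidic protein of the ribosomal stalk, gave 26951, 40341 and 30871, and Ptma, which encodes the nuclear protein prothymosin alpha, 23313, 46078 and 21143. Hnrnpab, an RNA-binding protein gene, gave 25100.1, 37014 and 23388.

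The sixth brightest gene was Dppa5a, an RNA-binding protein of pluripotent cells and early embryos, at 22382, 32674 and 25851. Its other probe gave 156, 236 and 178. Odc1, the first enzyme of polyamine synthesis, measured 21596, 33064 and 25866, and Hprt, a purine salvage enzyme with 10 spots on each array, 21394, 31788 and 23674. The remaining genes of the brightest 25 were the ribosomal genes Rps29, Fau, Rps16, Rpl37a, Rps27, Rplp1, Rps23 and Rpl38, the histone gene H3f3a, the chaperone Hsp90aa1, the initiation factor Eif3c, the RNA-binding gene Hnrnpf, the ribosome biogenesis gene Rbis, the ubiquitin pathway genes Fbxo2 and Ubxn1, Wtap, a subunit of the RNA m6A methyltransferase complex, and Rad21, a subunit of the cohesin ring. By probe number, 14 of the 25 had 1 probe and 11 had several, of which 3 had a probe detected in no pool. All 25 had the highest net signal in pool 2. After quantile normalisation, which gives the pools the same distribution of values, the SD of these genes over the 3 pools was at most 0.33 log2 units, with a median of 0.13.

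Genes of the protein and energy machinery were detected more often than the 23.5% of all genes. Of 79 cytosolic ribosomal protein genes, 73 were detected in 3 of 3 pools, 3 in some and 3 in none. The 3 not seen were Rpl3, Rpl4 and Rpl13a. By subunit, 42 of 47 genes of the large subunit and 31 of 32 of the small subunit were detected in 3 of 3 pools. Their median net signal was 1099 and 5806, a contrast of spots that says nothing of subunit amounts. Among the 73, the lowest mean net signal was that of Rps6, at 63.4, 53.5 and 53.0 in the 3 pools, and the highest that of Rplp2.

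Of 76 genes of the respiratory chain and ATP synthase, which make ATP in mitochondria, 58 were detected in 3 of 3 pools. The cytochrome oxidase subunit gene Cox6a1 gave 11722, 16904 and 9710, and Atp5g3, a subunit of the proton ring of ATP synthase, 6237, 9167 and 5855. Of the 4 succinate dehydrogenase genes, 3 (Sdha, Sdhb and Sdhc) were in the class with no detection, and Sdhd gave 144, 420 and 222. Of 37 glycolysis and pyruvate genes, 16 were detected in 3 of 3 pools. Among them Pgam1, a glycolytic mutase, gave 2748, 4279 and 1672, and Mpc1, a subunit of the mitochondrial pyruvate carrier, 2789, 4365 and 3196. The glucose transporter Slc2a1 was detected in pool 2 alone, at 21.8, 152 and 30.9, and the lactate and pyruvate transporter Slc16a1 in all pools, at 354, 681 and 464.

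For the proteasome, the complex that degrades marked proteins, 22 of 37 subunit genes were detected in 3 of 3 pools, and for the chaperones, which fold proteins, 23 of 32. Hsp90aa1 was bright, at 12760, 24926 and 15450.0, and Hsp90ab1 was far dimmer and uneven, at 84.5, 81.5 and 371. Hspa1a, an inducible chaperone known for its expression at genome activation, was detected in pools 2 and 3 but not in pool 1, at 36.6, 439 and 155. Of 18 genes often used as references, 12 (66.7%) were detected in 3 of 3 pools, beside 23.5% of all genes. Actb, the beta-actin gene, was dim at 47.6, 63.1 and 49.99 on a probe with 10 spots on each array. Its other probe gave 24.1, 28.1 and 27.5 and no call. Tbp, Eef2, Rpl13a and Sdha were not detected in any pool.

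**Figure D2:**
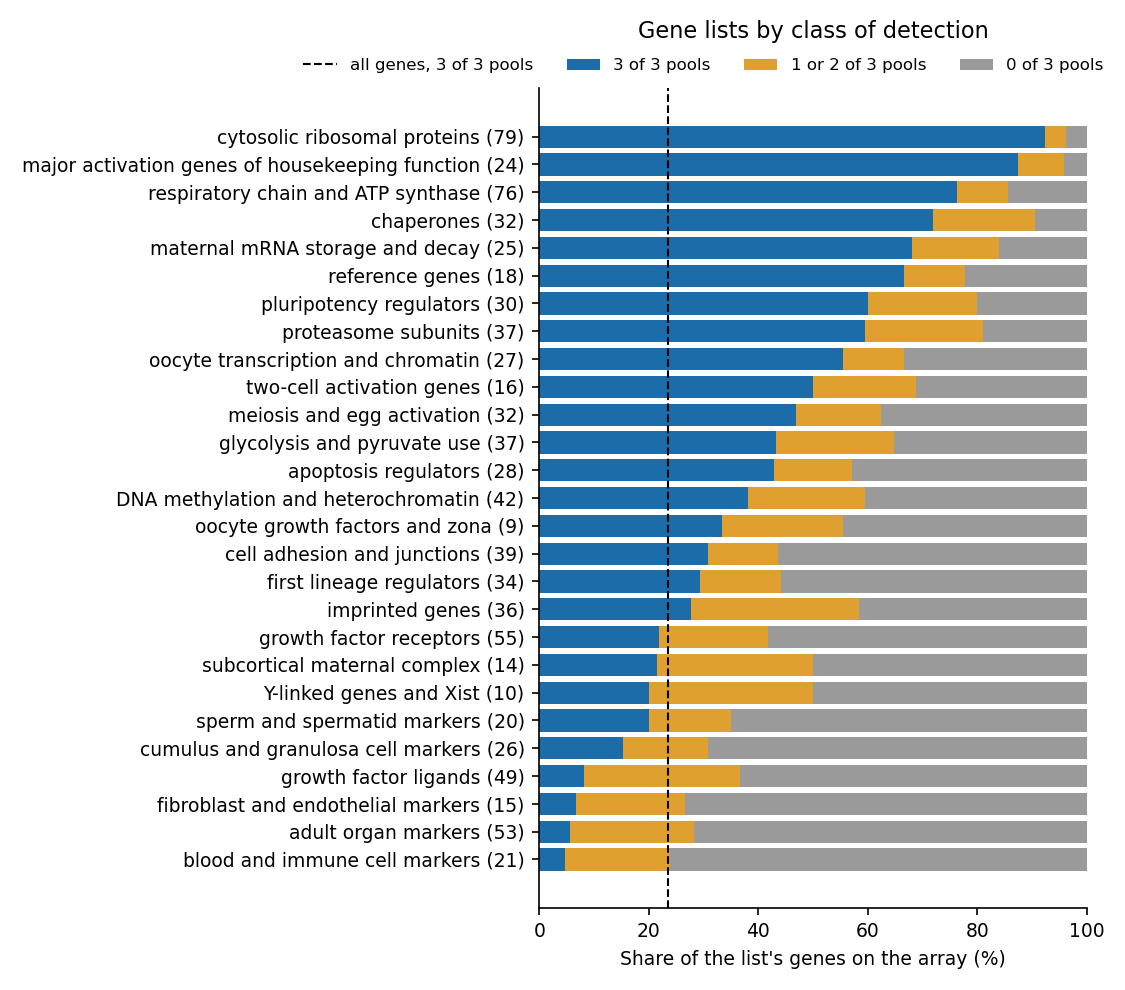
Share of each gene list (number of its genes on the array in brackets) detected in 3 of 3, in 1 or 2 of 3 and in 0 of 3 control pools; the dashed line marks the 23.5% of all 19504 genes detected in 3 of 3. Ribosomal and housekeeping lists lie at the top, from 92.4% downwards, and markers of blood, adult organs and fibroblasts at the bottom, from 4.76% to 6.67%.

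Products of the oocyte were divided. Of 14 genes of the subcortical maternal complex and its relatives, a protein assembly beneath the egg membrane that is needed for cleavage, 3 were detected in 3 of 3 pools, 4 in some and 7 in none, close to the share of all genes. Khdc3, a KH-domain member of that complex, gave 650, 1097 and 509. Of 9 oocyte growth factor and egg coat genes, 3 (33.3%) were detected in 3 of 3 pools, beside 23.5% of all genes. They were Gdf9 at 674, 598 and 450.3, Oosp1, an oocyte-secreted protein gene, at 439, 759 and 313, and Zp3 at 54.8, 74.0 and 94.5. Bmp15 gave 137, 55.9 and 27.3 and lay at the floor in pool 3.

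Among 27 oocyte transcription and chromatin genes, 15 (55.6%) were detected in 3 of 3 pools, beside 23.5% of all genes. Dppa3 (Stella), a maternal factor that protects methylated DNA in the zygote, gave 7868, 15177 and 9246. Oog1, an oocyte leucine-rich repeat gene, gave 6998, 13521 and 6569, and its relative Oog3 1651, 3316 and 1121. Gtsf1, a gene of the small RNA pathway of the germ line, gave 499, 737 and 310.1. Nobox, Figla and Sohlh2, transcription factors of the growing oocyte, were not well above background in any pool, nor was Zar1. Oog1, Oog3, the Obox genes and other members of multigene families have near copies in the genome, and their signals cannot be assigned to a single copy here.

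Of 32 meiosis and egg activation genes, 15 (46.9%) were detected in 3 of 3 pools, beside 23.5% of all genes. Some of the 15 also serve mitosis. Cdc20, which activates the anaphase-promoting complex, gave 8874, 13350 and 9606, with an SD of 0.07 log2 units. The cyclin gene Ccnb1 gave 4180, 6332 and 3659, the kinase gene Aurka 3174, 5967 and 1886, and Cd9, an egg membrane protein needed for sperm fusion, 6286, 10986 and 5804. Mos, the kinase that holds the egg in metaphase, and the meiotic recombination genes Dmc1, Spo11 and Msh5 were not detected in any pool. Of 25 genes of maternal mRNA storage and decay, 17 were detected in 3 of 3 pools. Ybx2, a germ cell RNA-binding protein, gave 1612, 2827 and 1854. Btg4, an adaptor of the deadenylase that clears maternal mRNA, gave 127, 288 and 232, and Cnot6l, a catalytic subunit of that deadenylase, 363, 841 and 1101, highest in pool 3.

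Genes known to come on with the genome of the embryo were taken as a housekeeping list and a two-cell list. No egg is among these pools, so the calls cannot tell RNA made by the embryo from RNA stored in the egg. Of 24 housekeeping genes known from the main wave of activation, 21 (87.5%) were detected in 3 of 3 pools, beside 23.5% of all genes. Among them were Hprt, Odc1, the initiation factor gene Eif4e at 10342, 20520.0 and 12120, and the nuclear transport gene Ran at 7636, 8340 and 6592. Polr2a, the large subunit of RNA polymerase II, was called in all pools although its net signal was 57.0, 78.8 and -163. The last value is a mean over 8 of the 10 spots of its probe, 1 of which had a local background of 1951, and the median over those spots was 77.3. On the whole of array 3, 81 spots had a local background over 100, against 12 and 5 on arrays 1 and 2. In all, 2 genes detected in 3 of 3 pools had a net signal of 0 or less in some pool.

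Of 32 listed genes of the earlier two-cell wave, 16 had no probe with a gene name. Of the 16 on the array, 8 (50%) were detected in 3 of 3 pools, beside 23.5% of all genes. Sp110, a nuclear body protein gene, gave 6759, 14250.4 and 6806, and the Prame-family genes Pramel7 and Pramel13 gave 4078, 5132 and 3538, and 1134, 1292 and 984. Zscan4c, the best known gene of that wave, was detected in pool 2 alone, at 24.6, 115 and 25.3. Zfp352 gave 187, 126 and 118, and Usp17la 96.3, 385 and 193.

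Pluripotency regulators keep early embryonic cells able to form every tissue. Of 30 such genes, 18 (60%) were detected in 3 of 3 pools, beside 23.5% of all genes. Dppa5a and Fbxo15, an F-box gene of embryonic stem cells (6941, 12293 and 7909), were among the bright ones, with the zinc finger gene Sall4 at 8302, 9873 and 10395. The other Sall4 probe gave 144, 140 and 142. Klf2 gave 1753, 2498 and 1275 and Klf4 1267, 1758 and 919.8, both zinc finger factors, and neither differed by more than 0.36 log2 units between pools after normalisation. The central genes of the network were not measured above background or barely so. Pou5f1 gave 31.1, 50.2 and 36.5 and was detected in pool 2 alone, and Sox2, Nanog and Lin28a were not detected in any pool. Each of these had 1 probe on the array, so the absence of a call rests on a single sequence.

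Regulators of the first lineages were detected at near the share of all genes, 10 of 34 in 3 of 3 pools and 19 in none. Hand1, a trophoblast factor, gave 2116, 2643 and 1349.6, and Gata6, a factor of the primitive endoderm, 1283, 1878 and 903. The other Gata6 probes gave 28.9 to 39.1 net signal and no call, so its detection rests on a single probe. Sox21, an HMG-box factor known from four-cell embryos, gave 252, 604 and 469. Cdx2, the trophectoderm factor, was detected in pool 2 alone at 36.9, 51.0 and 36.4, and Eomes, Gata3, Krt8, Gata4 and Sox17 in no pool. Of the Hippo pathway, Lats2, a kinase, gave 93.3, 288 and 358 and Tead4, its transcription factor, 92.8, 69.6 and 58.7, while Yap1, the coactivator, was not well above background. Of the 10 members detected in 3 of 3 pools, 5 had a range of at least 2-fold between pools, beside 14.2% of all genes detected in 3 of 3. The median net signal of the 10 was 225. In the middle of 5 bins of signal, which holds that value, 27.0% of genes ranged at least 2-fold. Dab2, an endocytic adaptor of the primitive endoderm, was the widest of the 10 members, at 49.98, 228 and 414.

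Of 49 growth factor ligands, 4 were detected in 3 of 3 pools (Gdf9, Pdgfa, Inhbb and the Notch ligand gene Dll3), which is 8.16%, and 31 in none. Without pool 3, 9 were detected in both remaining pools, beside 5345 of all 19504 genes. By the scanner's looser call of a positive and significant signal, 23 of the 49 were in 3 of 3 pools, beside 8931 of all 19504 genes. The low share of ligands was thus seen with the stricter call and not with the looser one. Pdgfa gave 123, 308 and 148, and Dll3 634, 428 and 263. Of 55 receptors, 12 were detected in 3 of 3 pools, which is 21.8% and near the share of all genes. The brightest was Igf2r, the receptor that takes up insulin-like growth factor 2, at 3892, 6126 and 4904. Both chains of the receptor for the cytokine GM-CSF were detected in every pool, Csf2ra at 243, 515 and 356 and Csf2rb at 106, 263 and 121. No member of the Wnt family, and none of the Frizzled receptors for Wnt proteins in the list, was detected in 3 of 3 pools. The Wnt coreceptor gene Lrp5 was, at 56.0, 58.9 and 57.9. Of 39 adhesion and junction genes, 12 (30.8%) were detected in 3 of 3 pools, near the 23.5% of all genes. Cdh1, the cadherin of compaction, gave 100.1, 165 and 56.8, and the catenin genes Ctnna1 and Ctnnb1 gave 572, 1095 and 415, and 320.4, 152 and 119.7.

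In chromatin, 16 of 42 genes (38.1%) of DNA methylation and heterochromatin were detected in 3 of 3 pools, beside 23.5% of all genes. The Polycomb gene Suz12 gave 2614, 5180 and 2703, Cbx3, a heterochromatin protein, 3155, 4327 and 2528, and the maintenance methyltransferase gene Dnmt1 was dim at 40.1, 44.6 and 49.3. Ehmt1, a histone H3 methyltransferase, was uneven, at 1945, 2598 and 539, low in pool 3. Among 28 apoptosis regulators, 12 (42.9%) were detected in 3 of 3 pools and 12 in none. The brightest were the survival genes Birc5 (survivin), which also acts in mitosis, at 5049, 6448 and 4223, and Mcl1, at 4742, 6374 and 3644. Bcl2 and Bax were not detected in any pool.

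Families were also grouped by the letters of the gene symbol before the first digit, for 144 stems with at least 15 genes on the array. The highest shares detected in 3 of 3 pools belonged to Rpl (87.5% of 48 genes) and Rps (83.7% of 43), then Med, subunits of the Mediator of transcription (76.7% of 30), Eif, translation initiation factors (71.7% of 53), Cox (70.4% of 27) and Dhx, RNA helicases (68.8% of 16). Mrpl, mitochondrial ribosomal proteins (67.3% of 49), Nup, nucleoporins (65% of 20), Cdc (61.3% of 31) and Timm, mitochondrial import (60% of 15), completed the top 10. At the other end, 10 stems had no member in 3 of 3 pools: Prss, Serpinb, Serpina, Mmp and Adamts, which are proteases or their inhibitors, the Pcdhb protocadherins, the Ccl chemokines, Wnt, Ms and the Ces carboxylesterases. Of the odorant receptors, 14 of 906 Olfr genes were detected in 3 of 3 pools and 853 in none, and of the vomeronasal receptors 1 of 128.

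Protein-coding genes were detected in 3 of 3 pools for 24.5% of 18430 and long noncoding RNA genes for 5.24% of 878. Between the chromosomes the share was lowest on the Y chromosome, with 3 of 17 genes, and otherwise ran from 19.5% on chromosome 7 to 28.0% on chromosome 12. Without the odorant and vomeronasal receptor genes, which lie in large clusters, chromosome 7 stood at 22.4% and chromosome 6 was the lowest autosome at 21.5%. The X chromosome stood at 22.7% with those genes and at 22.8% without them.

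Markers of other cells that a pool of embryos could carry were also followed. Of 26 cumulus and granulosa cell markers, the cells that surround the oocyte, 4 (15.4%) were detected in 3 of 3 pools, 4 in some and 18 in none, against 23.5% of all genes in 3 of 3 pools. Their summed net signal was 1923, 2446 and 1765 in pools 1, 2 and 3, and its largest part came from Amhr2, the receptor of anti-Müllerian hormone, at 1142, 1505 and 874. The others detected in every pool were the nuclear receptor genes Nr5a1, at 129.6, 119 and 132, and Nr4a1, at 63.9, 131 and 54.9, and the collagen gene Col4a1, at 41.3, 49.9 and 49.5. The defining cumulus genes Has2, Tnfaip6, Ptgs2, Cyp19a1, Fshr and Vcan were not detected in any pool. Of 20 sperm markers, 4 (20.0%, near the share of all genes) were detected in 3 of 3 pools, with a summed signal of 715, 927 and 875. They were Ldhc, a lactate dehydrogenase of the testis, at 83.7, 227 and 120.1, Odf2, a sperm tail gene, at 120.4, 103 and 62.5, the acrosomal protease gene Acr, at 54.8, 70.4 and 64.7, and the packaging protein gene Prm1, at 47.9, 77.5 and 51.6. The packaging protein genes Tnp1 and Tnp2 were not detected. One of 21 blood markers (Mpo, at 38.6, 38.8 and 40.04) and 1 of 15 fibroblast and endothelial markers (Acta2, smooth muscle actin, at 118, 323 and 286) were detected in 3 of 3 pools. The summed signals were 546, 611 and 694 for blood and 586, 700.0 and 683 for fibroblasts. Each of these sums counts all list members on the array, detected or not, and so holds much signal of the floor. The median member had a net signal of 27.9 for blood, 26.9 for fibroblasts, 29.9 for sperm and 26.7 for cumulus. Vim, Ptprc and Pecam1 were not well above background. Whether such cells took part in any result was not tested.

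Of 53 adult organ markers, 3 (5.66%) were detected in 3 of 3 pools, beside 23.5% of all genes. They were the keratin genes Krt14 and Krt10 at 43.7 to 82.4 net signal and the neuronal gene Syn1 (synapsin I) at 9249.6, 15778 and 16842. Nearly all of the summed signal of the list, 10685, 17505 and 18619, was Syn1. That gene had 4 probes, and the other 3 gave 12.3 to 34.05 net signal and no call.

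Probes of the same gene often disagreed in this way. Of 8671 genes with several probes, 2796 had a probe detected in 3 of 3 pools, and 2011 of these (71.9%) also had a probe detected in none. The widest gaps within a gene were those of Hnrnpf, Rps20, Wtap, Rad21, Syn1 and Eif4e. For Hnrnpf, the bright probe gave 15779, 21675 and 13787 and the other 23.4, 23.2 and 21.2. Position along the gene went with the difference. In 1864 genes with probes on the same strand, 100 to 200000 bases apart, and an outer probe detected in 3 of 3 pools, the probe nearer the 3' end alone was detected in 950 (the other in no pool), the probe nearer the 5' end alone in 271, and both in 241. The choice of the brightest probe therefore sets the class of many genes, and when most probes of a gene had to be detected 2365 genes, not 4585, were in 3 of 3 pools.

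Base composition of the probes also went with detection. Of probes with 70% or more G and C, 43 of 75 (57.3%) were detected in 3 of 3 pools, and of those with 60 to 70% 86 of 258 (33.3%), beside 14.3% at 40 to 50% and 6.19% under 30%. The median was 41.7% for probes detected in 3 of 3 pools and 40% for those detected in none. Several bright genes nonetheless rest on probes of 60% or more G and C. Efcab15 rests on a single probe of 68.3%, Fbxo2 on 1 of 65% and Syn1 on 1 of 81.7%. Hsf1, a heat shock factor gene with net signals of 7096, 13383 and 9739, rests on 1 of 63.3%. The first 30 of the 60 bases of these probes are shown with the dimmest probe of Syn1 and of Hsf1, to let the bright and the dim probe of a gene be compared. They are read from the deposited array tables, 5' to 3', with G and C in capitals.
Efcab15, bright probe: GCCCaaGGCCaGaaCGCaaGGCtCGaGttC
Syn1, bright probe: CCGCCGCCtCCCtCGGCCGCCaGCCCtGGG
Syn1, dimmest probe: ttaaCtGaCtGtaaGtCtttCtttaaaaGt
Hsf1, bright probe: aGCCCtGaCtCCCtCCCtCCtCCtGCaGCt
Hsf1, dimmest probe: atCCCtaGGaCatGGCtGGtCCtaGGGaGa

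In the coordinates of the array design (mouse mm7), the bright Syn1 probe lies at chrX:19353787-19353846 and the dimmest at chrX:19315549-19315608. The Efcab15 probe lies at chr11:103308410-103308469. The 2 Hsf1 probes lie close together, at chr15:76582655-76582715 and chr15:76583221-76583280, and the dimmer one gave 31.7, 34.6 and 36.5. Whether these probes fall in exons or untranslated regions was not examined, as no genome of that build was used. The brightness of Efcab15, Syn1 and Hsf1 therefore rests on 1 probe each. Fbxo2 differed from them in detection only, since all 3 of its probes were detected in every pool. Its probe of 65% G and C had a mean net signal of 19761, and the others had 2448 and 143. The height of its signal therefore also rests on 1 probe.

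Steadiness over the 3 pools was measured by the SD of the normalised log2 signal of each gene detected in 3 of 3 pools. The median SD was 0.26 (quartiles 0.14 and 0.41, n = 3 pools), and 3936 of 4585 genes stayed within a 2-fold range. The other 649 (14.2%) ranged at least 2-fold. Across these genes the pools correlated with Pearson r of 0.960 (pools 1 and 2), 0.945 (1 and 3) and 0.952 (2 and 3), a description over genes, which are not independent. Between pools 1 and 2, 246 genes were at least 2-fold apart, between 1 and 3 382, and between 2 and 3 315. Among the 649 variable genes pool 3 was the one that stood apart in 268, pool 1 in 227 and pool 2 in 154, about as often on the high side as on the low side.

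Spread depended on brightness. With the genes in 5 bins of 917 by mean net signal, the median SD was 0.13 in the dimmest bin, 0.32, 0.35 and 0.32 in the next 3 and 0.22 in the brightest. In the brightest bin, 32 genes ranged at least 2-fold, and in the middle bin 248. The low spread of the dimmest bin is not a sign of steady transcripts, since the offset of 50 added before the logarithm compresses values near the floor. The error of a single spot could be read from 40 detected probes printed 10 times on each array: the SD between spots had a median of 0.13 log2 units, and the standard error of their mean, over 7 to 10 spots, a median of 0.041. The SD between the pools' means of the same probes had a median of 0.19 and was above that standard error in 37 of 40 probes. Most probes had a single spot on each array, so a difference between pools and an error of a spot cannot be told apart for them.

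**Figure D3:**
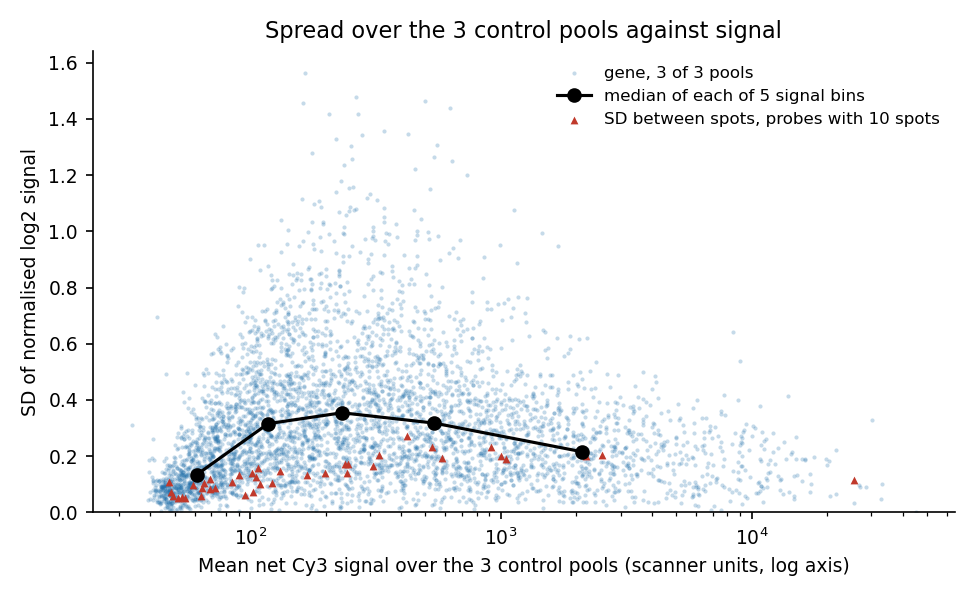
SD of the normalised log2 signal over the 3 control pools against mean net signal (log axis) for the genes detected in 3 of 3 pools with a mean net signal above 0; black points are medians of 5 bins of signal, and red triangles give the SD between spots of 1 array for 40 probes printed 10 times. The medians run from 0.13 in the dimmest bin through 0.35 in the middle to 0.22 in the brightest.

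Of the 12 genes with the lowest SD, 6 were dim, with mean net signals of 44.0 to 52.8 (Gbx1, Krtap7-1, Mpeg1, Lgals3, Mc3r and Esam), and Rubcn, Atrip and Nsf were of moderate signal. Efcab15 had an SD of 0 by construction, because the highest value on each array is made the same by quantile normalisation. The other bright ones were Cox5a, a cytochrome oxidase subunit, at 12.87 mean log2 signal with an SD of 0.01, and Tmem229b, at 12.72 with an SD of 0.01. With the choice limited to genes of mean net signal of 1000 or more, a limit set after the values were seen, the steadiest genes also held Sf3b6, a splicing factor subunit, Ifrd1, Nsmce4a, Atp5g3, Cand1, which recycles cullin ubiquitin ligases, Nap1l4, a histone chaperone, the RNA-binding gene Pcbp1, Hprt and Rras2. Their SD ranged up to 0.03. Sf3b6 gave 1283, 1929 and 1218 net signal and Hprt 21394, 31788 and 23674, with pool 2 highest before normalisation in each.

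The widest spread among the genes detected in 3 of 3 pools was that of Zcchc13, a zinc finger gene, at 35.9, 31.8 and 428 net signal, with an SD of 1.56. Kifbp, a kinesin-binding protein gene, was high in pool 2 alone (40.7, 698 and 53.4) and Tk1, thymidine kinase, in pool 3 alone (30.3, 57.5 and 398). Topbp1, a replication checkpoint gene, and Chac1, a glutathione-degrading enzyme, were low in pool 3, at 497, 936 and 65.8 and at 402, 810.1 and 65.4. The remaining genes were Gyg, Efhb, Ttpal, Pcnx4, Ifngr1, Snx27 and Chsy1, with SDs from 1.31 to 1.44. All 12 had mean net signals from 162 to 629. Gyg, glycogenin, and Chsy1, a chondroitin synthase, were low in pool 1 only, at 94.1, 1074 and 718 and at 109, 762 and 796. At 1000 or more mean net signal, the widest were Chmp5, a membrane remodelling gene (1106, 1984 and 296), Mcts1, a translation factor gene (650.4, 1319 and 2413), and Ehmt1. Of the 12 widest in that range, 8 were lowest in pool 3 after normalisation.

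Among genes detected in 1 or 2 pools, the widest range was that of the histone gene H2bc6, at 21.3 and 25.9 in pools 1 and 2 and 37051 in pool 3. The spot directly beside it on array 3, of Sh3bgr, gave 55675 in pool 3 against 20.7 and 24.0 in the other pools, and the scanner software had marked that spot as an outlier but not the spot of H2bc6. Another spot that touches that of Sh3bgr was also bright on this array only, at 384 beside 25.5 and 28.7. Mtss1, an actin-binding gene, was detected in pools 1 and 2 but not in pool 3 (829, 673 and 40.8). The same held for Cdkal1, a tRNA-modifying enzyme (441, 336 and 32.2). Nop56, a nucleolar protein gene, was not detected in pool 2 (568, 24.8 and 632). Ccdc73, Poln and Prxl2a were high in pool 3 alone, and Krtap4-13 and Rrp1b were highest in pool 1.

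**Figure D4:**
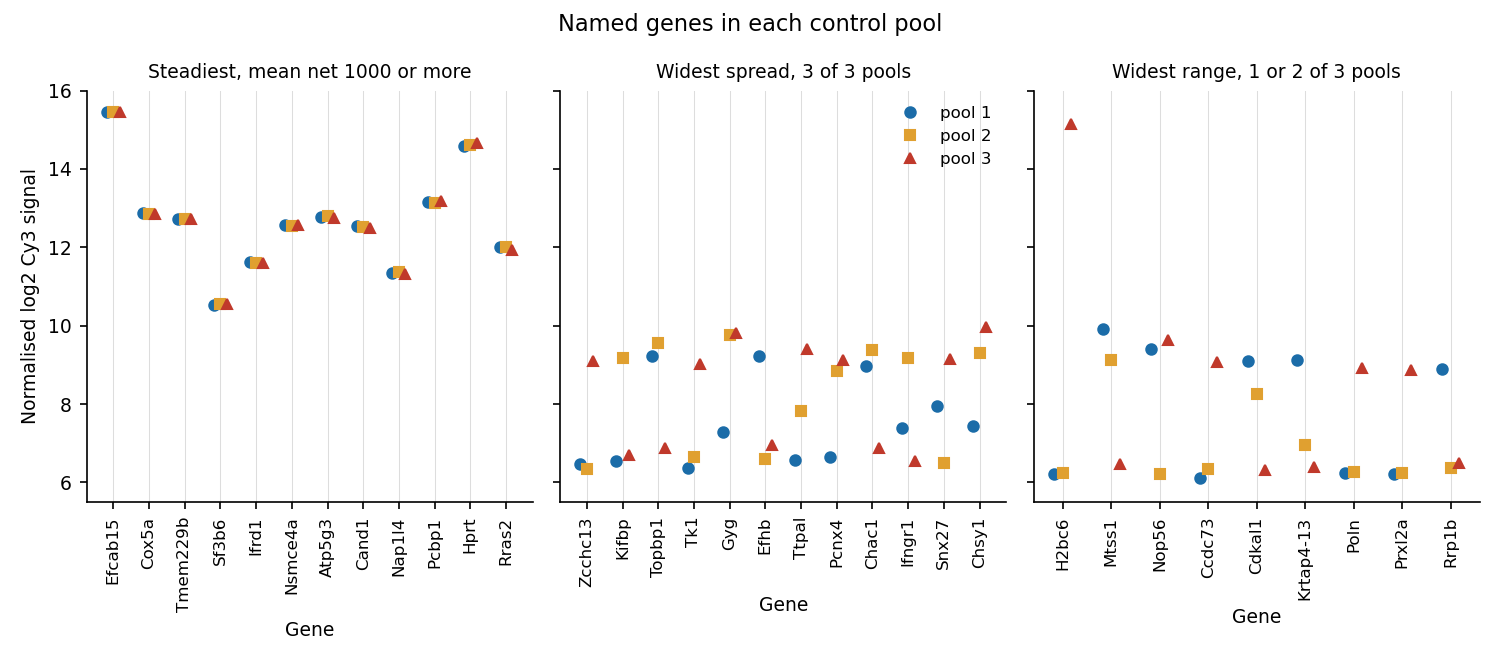
Normalised log2 Cy3 signal of named genes in control pools 1 (circles), 2 (squares) and 3 (triangles): the 12 steadiest genes of mean net signal 1000 or more, the 12 with the widest spread among genes detected in 3 of 3 pools and 9 of the 10 with the widest range among those detected in 1 or 2. The steady genes overlap in the 3 pools, the others have at least 1 pool far from the rest, and H2bc6 in pool 3 stands alone.

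Steadiness can be set out by functional group. Of the ribosomal genes detected in 3 of 3 pools, 4 of 73 ranged at least 2-fold between pools, with a median SD of 0.17, and of the respiratory genes 4 of 58, with 0.21. Of the genes of maternal mRNA storage and decay, 6 of 17 did, with a median SD of 0.29, among them Cnot6l and the RNA-binding gene Elavl2, which gave 104, 495 and 115. These shares stand beside 14.2% of all genes detected in 3 of 3 pools, and the groups also differ in median net signal, at 1892, 680.2 and 166. In the bins of signal that hold these medians, 3.49%, 19.8% and 27.0% of genes ranged at least 2-fold.

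Genes detected in more pools had promoters richer in CpG dinucleotides, the sites of DNA methylation. RefSeq windows of 300 bases, from 250 before to 50 after the start (GRCm38.p6), were matched by symbol for 15453 genes, the first listed window for genes with several. The ratio of CpG dinucleotides to the number given by base content had a median of 0.81 (quartiles 0.65 and 0.95) for 3721 genes detected in 3 of 3 pools, 0.72 for 2958 detected in some and 0.45 (0.19 and 0.76) for 8774 detected in none. Without the odorant and vomeronasal receptors the last was 0.52. The G and C content was 61.3%, 60% and 55%. Among the genes detected in 3 of 3 pools, those of 1000 or more mean net signal stood at 0.85 and the rest at 0.80.

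**Figure D5:**
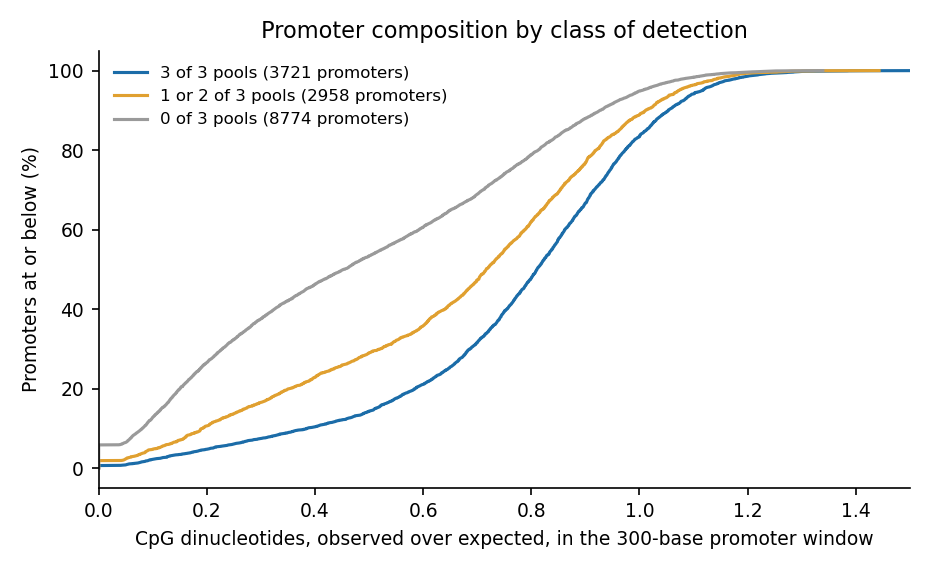
Cumulative share of promoters by the observed over expected ratio of CpG dinucleotides in the 300-base window, for genes detected in 3 of 3, in 1 or 2 of 3 and in 0 of 3 control pools. The medians are 0.81, 0.72 and 0.45.

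Short motifs were searched on both strands of the same windows. The TATA box TATAAA was found in 7.23% of promoters of genes detected in 3 of 3 pools, 8.76% in some and 15.01% in none (11.9% of all windows), and the ETS-type motif CCGGAAG in 21.7%, 15.2% and 8.54% (12.99% of all). GGGCGG, the Sp1 box, was found in 66.8%, 58.8% and 41.8% (51.1%) and TGACGTCA, the cyclic AMP response element, in 3.98%, 3.01% and 1.78% (2.54%). CCAAT (40.3%, 37.5% and 38.4%, 38.7% of all) and CTTTCC (25.6%, 26.7% and 26.5%, 26.3% of all) were about as common in each class, and CACGTG, the E-box, was found in 10.8%, 9.87% and 7.26% (8.61%). None of these motifs contains another. The classes also differed in base composition, as given above. Among windows with a CpG ratio of 0.75 or more, TATAAA was found in 5.62%, 4.77% and 5.73% and GGGCGG in 75.9%, 77.5% and 77.6% of the 3 classes. In the same windows CCGGAAG was found in 25.9%, 22.6% and 17.4%, TGACGTCA in 5.22%, 4.32% and 3.59%, CCAAT in 37.8%, 35.8% and 35.2%, CACGTG in 11.95%, 12.1% and 12.3%, and CTTTCC in 23.2%, 23.6% and 22.4%. Of 58 ribosomal promoters, 27 held CTTTCC (46.6%) and 23 CCGGAAG (39.7%).

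To show both kinds, the 250 bases before the start are given for the first genes of the brightest 25 with CCGGAAG there, Rplp2 and Fbxo2, and for the first in the alphabet of the undetected adult organ markers with TATAAA there, the skeletal actin gene Acta1 and the pancreatic elastase gene Cela1. They are RefSeq sequences of build GRCm38.p6 on the gene's own strand, 5' to 3', with the motif on either strand in capitals. Rplp2 is at chr7:141447401-141447650 and Fbxo2 at chr4:148160418-148160667, both on the plus strand. Acta1 is at chr8:123894776-123895025 and Cela1 at chr15:100687921-100688170, both on the minus strand.
Rplp2: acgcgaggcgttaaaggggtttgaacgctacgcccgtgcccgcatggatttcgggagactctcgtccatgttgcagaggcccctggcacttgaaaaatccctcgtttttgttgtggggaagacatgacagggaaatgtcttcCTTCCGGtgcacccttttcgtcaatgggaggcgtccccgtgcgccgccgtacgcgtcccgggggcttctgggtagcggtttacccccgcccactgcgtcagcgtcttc
Fbxo2: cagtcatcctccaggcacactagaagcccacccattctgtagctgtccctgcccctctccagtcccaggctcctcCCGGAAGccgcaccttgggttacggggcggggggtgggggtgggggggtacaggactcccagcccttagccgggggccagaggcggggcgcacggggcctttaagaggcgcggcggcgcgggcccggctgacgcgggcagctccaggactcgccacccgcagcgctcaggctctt
Acta1: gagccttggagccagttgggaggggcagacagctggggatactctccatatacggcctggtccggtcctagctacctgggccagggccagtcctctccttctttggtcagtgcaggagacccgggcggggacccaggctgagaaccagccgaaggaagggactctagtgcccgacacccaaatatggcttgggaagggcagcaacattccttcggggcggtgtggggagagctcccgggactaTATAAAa
Cela1: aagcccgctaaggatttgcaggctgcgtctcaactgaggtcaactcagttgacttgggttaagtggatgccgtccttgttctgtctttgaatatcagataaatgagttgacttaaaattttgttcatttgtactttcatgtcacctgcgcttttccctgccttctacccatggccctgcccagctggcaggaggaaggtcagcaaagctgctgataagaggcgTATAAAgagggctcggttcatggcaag

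In both marker promoters TATAAA lies close to the start, and in Rplp2 and Fbxo2 the motif CCGGAAG lies farther upstream. Acta1 measured 30.3, 35.0 and 37.9 net signal and Cela1 30.3, 28.4 and 36.5 in the 3 pools, against 26951, 40341 and 30871 for Rplp2. A match of letters is a description of the window and not a bound factor.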

How the data were processed

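Cy3 signals of 3 control pools were taken from 3 arrays on 1 slide (45018 spots, 43379 non-control, 41174 probes). Agilent Feature Extraction 9.5.1.1 is named in the submitters' processing notes. Intensity values were used as deposited: the mean signal of each spot and the median of its local background, the first not yet corrected for the second, per the file headers. The deposited calls of signal well above background are other values (0 or 1), made by the scanner software with a multiplier of 13 on background noise, per the file headers.

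Signals were background-corrected by normexp (offset 50) and quantile normalised over the 3 Cy3 channels in limma 3.58.1 (R 4.3.3) on the log2 scale. Outlier spots (131, 112 and 237 in pools 1, 2 and 3) were left out, and spots of a probe averaged. A probe was detected when more than 50% of its spots were. RefSeq names were found by accession for 22944 probes, symbol for 6664 and synonym for 3108, and 8458 stayed unnamed. The tables were summarised with pandas 2.3.3, and these steps had been checked on simulated spots. With 1 group no test was made. The number of arrays limits the precision.

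The members and lists were chosen with earlier results of these data known. Named were the 25 brightest genes, the 12 steadiest and 12 most variable of those in 3 of 3 pools, the 10 with the widest range in 1 or 2 pools, members of the lists, and 6 genes with disagreeing probes. Clone and accession names were passed over. A gene that the rule takes is not reported here. Alternatives changed the call, the outlier filter, the choice of probe, the background correction, the scaling and the pools used.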

Additional observations from a re-analysis of the deposited data

How the results depend on the processing

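No paired analysis was possible because only 1 group was described. With the positive and significant call, 8931 genes were detected in 3 of 3 pools, 5745 in some and 4828 in none, and with a signal at least 2 times the local background 9636, 7337 and 2531. When most probes of a gene had to be detected, the numbers in 3 of 3 and in some pools were 2365 and 2448, and the list members detected in 3 of 3 pools fell to 263 from 395. Leaving out each pool in turn gave 4713 to 5345 genes detected in every remaining pool, 2398 to 2790 in some and 11698 to 12393 in none, and 402 to 422 list members.

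The median SD of 0.26 was 0.44 with scaling to the 75th percentile, 0.17 with the mean over probes and 0.063 with no filter on dim genes, and ranged from 0.18 to 0.22 without 1 pool. The 649 genes at least 2-fold apart were 1158 with an offset of 0, 1731 with 75th percentile scaling, 1550 with the scanner's processed signal, 1233 with no filter and 280 with the mean over probes, and 246 to 382 without 1 pool, since 2 pools give a smaller range than 3. Of 216 list counts under the alternatives, 173 stayed within 1.5 times. When most probes of a gene had to be detected, 14 lists moved by more. With the positive and significant call 13 did, and with signal at least 2 times the local background 14. The adult organ markers, for instance, rose from 3 to 18 of 53 with the positive and significant call. Over all 19504 genes that call raised the number in 3 of 3 pools from 4585 to 8931. No list moved when outlier spots were kept. When a pool was left out, the counts beyond 1.5 times were the ligands (9 in place of 4, without pool 3) and the blood markers (2 in place of 1, without pool 1). Near the floor of about 20 to 30 net signal a missing call does not show that a transcript is absent.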

Other observations

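Of 36 imprinted genes, which are expressed from the copy of 1 parent, 10 were detected in 3 of 3 pools, 11 in some and 15 in none. The first count is 27.8%, near the 23.5% of all genes. Igf2r, at 3892, 6126 and 4904 net signal in pools 1, 2 and 3, was the brightest. Phlda2, a placental growth regulator, gave 634, 870.1 and 538 and Sgce, a sarcoglycan gene, 272, 433 and 343. Igf2, the ligand of Igf2r, gave 20.9, 47.2 and 23.7 and was called in pool 2 alone. Of 10 genes that were Y-linked or belonged to the X-inactivation centre, Eif2s3y (47.1, 89.2 and 49.2) and Kdm5d (38.0, 42.0 and 55.7) were detected in 3 of 3 pools. Their share of 20% is near that of all genes. Xist, the RNA that coats the inactive X chromosome, was detected in pool 2 alone, at 22.4, 179 and 21.8.

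Of 8458 probes with no gene name, 450 (5.32%) were detected in 3 of 3 pools and 7217 in none.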
